A study of Mus musculus with 3 samples.

Results

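The genes described here encode enzymes that add methyl groups to histones or DNA (writers) or remove them (erasers). Members were chosen by gene symbol: 40 genes of the 31053 counted in each library, 26 of them writers and 14 erasers, and all 40 were found in all 3 libraries. Single-cell RNA was measured with 10x Genomics droplet libraries from methanol-fixed mouse cortical cultures, with 1 library per group. All 3 groups carry the labels C57BL/6, cortex and E14.5. Neural stem cells were neurospheres fed with EGF and FGF2, each at 20 ng/mL, without serum. The astrocyte culture medium held 10% serum. For MIM-treated astrocytes that medium was exchanged for MIM, which has no serum and holds FGF2 (20 ng/mL) with some or all of cysteine, glycine, methionine, S-adenosylmethionine, putrescine and threonine, and the cells were collected by day 5. Which metabolites and which day this library stands for is not in the labels, nor is the source of the astrocytes, for which the protocols describe both postnatal cortex and neurospheres. Serum, FGF2, the base medium and the metabolites all differ between treated and untreated astrocytes, so their parts cannot be told apart.

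Writers take the methyl group from S-adenosylmethionine, which cells make from methionine and which was among the MIM metabolites. Erasers work by oxidation: KDM1A uses the cofactor FAD, while the JmjC histone demethylases and the TET enzymes use oxygen, iron and 2-oxoglutarate. In the developing cortex these enzymes help set which neural genes a progenitor keeps open or silent: methylation of histone H3 at lysine 4 marks active promoters and enhancers, and methylation at lysine 27, the Polycomb mark, and at lysine 9 marks silent genes. Polycomb repressive complex 2 and DNA methylation at the astrocyte gene Gfap are textbook controls of when cortical progenitors start to make astrocytes.

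After filtering, 9145 neural stem cells, 9818 untreated and 14964 MIM-treated astrocytes remained, with 14689259, 50594420 and 50906724 UMIs (counted molecules) and medians of 1379, 5089 and 3156 UMIs per cell. A level is the summed UMIs of a gene per 1000000 UMIs of the library (CPM). Values for all 3 libraries are given in the order stem cells, untreated astrocytes, MIM-treated astrocytes unless said otherwise. Intervals are exact, at 95%, and cover counting error only. With 1 library per group no difference has a replicate check, and no test was run. The nuclear RNA Malat1 took 26.9%, 13.7% and 9.44% of UMIs, which lowers every other gene's CPM in proportion. Between 57 and 75 barcodes per library (at most 0.692%) also occurred in another library. The 8 astrocyte markers summed to 942, 2234 and 995 CPM. Among them, Gfap stood at 271 CPM and Aqp4 at 566 CPM in the astrocyte library but at 4.05 and 22.9 CPM in the MIM-treated library. From untreated to treated astrocytes Aldoc went from 895 to 391 CPM, Sox9 from 256 to 98.6 CPM and Gjb6 from 2.89 to 1.02 CPM. Slc1a3 went from 206 to 363 CPM, S100b from 11.8 to 87.8 CPM and Slc1a2 from 25.7 to 26.5 CPM. Slc1a3 (385 CPM), Sox9 (413 CPM) and Slc1a2 (39.0 CPM) were highest in neural stem cells. All 7 neural stem cell and progenitor markers reached 10 CPM in the neural stem cell library and in the MIM-treated library, and 4 did in the astrocyte library, with sums of 4591, 2061 and 10462 CPM. Marker sums of microglia, endothelium and mural cells or fibroblasts were at most 2.55 CPM in every library, those of neurons at most 24.6 CPM, and those of the oligodendrocyte lineage 762, 139.9 and 628 CPM. The part of these differences in the results was not tested.

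Both classes were highest in the neural stem cell library, and the eraser sum differed by more than the writer sum. Writers summed to 1150.0 CPM (interval 1133 to 1167) in neural stem cells, 574 CPM (568 to 581) in untreated and 718 CPM (711 to 726) in MIM-treated astrocytes. Erasers summed to 937 CPM (922 to 953), 271 CPM (267 to 276) and 334 CPM (329 to 339). Against neural stem cells the writer sum was 2.00-fold lower (1.96 to 2.04) in astrocytes and 1.60-fold lower (1.57 to 1.63) in MIM-treated astrocytes. The eraser sum was 3.46-fold lower (3.38 to 3.54) and 2.81-fold lower (2.74 to 2.87). The erasers therefore gave 81.5 UMIs per 100 writer UMIs in neural stem cells, against 47.2 (untreated) and 46.5 (MIM-treated) in the astrocytes. Most of that gap lay in 1 gene: Kdm6b alone held 35.2% of eraser UMIs in neural stem cells against 7.54% and 9.51%, and without it the values were 52.8, 43.6 and 42.1 per 100. With Malat1 left out of the totals, the writer sum was 2.37-fold lower in untreated and 1.98-fold lower in treated astrocytes than in the stem cells, and the eraser sum 4.08-fold and 3.48-fold lower.

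**Figure D1:**
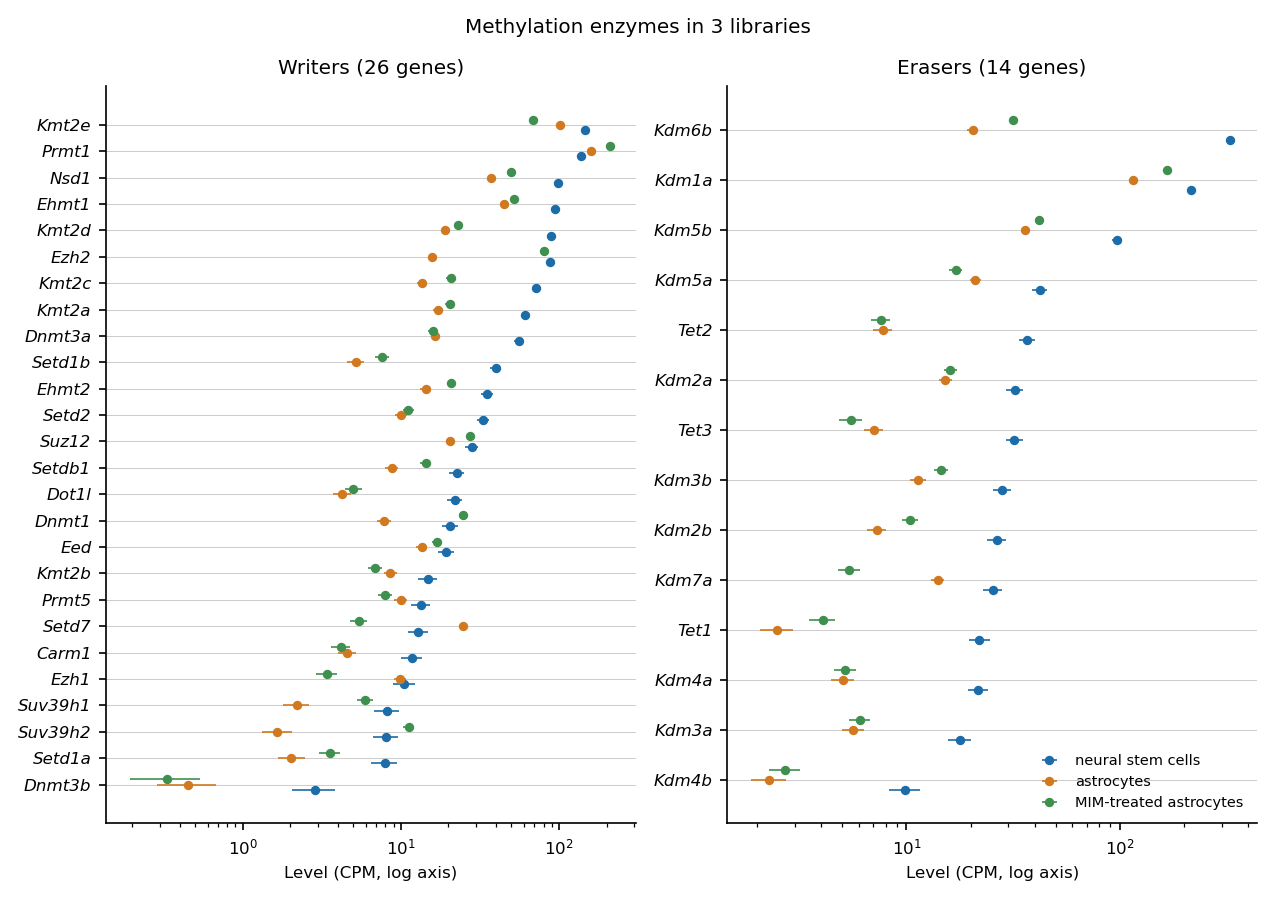
Level of each of 26 writers and 14 erasers (CPM, log axis) in the 3 libraries, 1 per group, with exact 95% counting intervals as bars. Most members are highest in neural stem cells, with the widest gap at Kdm6b (329.6 against 20.4 and 31.8 CPM), while Ezh2, Suv39h2 and Dnmt1 are close to or above the stem cell level in MIM-treated astrocytes.

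A member was called higher or lower where its log2 ratio, with 1 CPM added to both levels, had a size of at least 1 and the member reached 10 CPM in 1 or both libraries. A member that reached 10 CPM in only 1 of the libraries could therefore be called only as higher in that library, or not at all. Against neural stem cells, 13 of 14 erasers passed the level filter in astrocytes, and 10 were lower and 0 higher, where 25.1% of all 7919 genes that passed the filter were lower and 24.2% higher. Of the erasers called lower, Tet1, Tet2, Tet3, Kdm2b, Kdm3a and Kdm4a passed only through neural stem cells, so they could not have been called higher. The median log2 ratio was -1.62 over all 14 erasers, whatever their level, and 0.03 over the 7919 genes that passed the filter. Here and below, class medians take every member, and medians of all genes take only genes that passed the filter. In MIM-treated astrocytes 13 erasers passed, with 10 lower and 0 higher against a background of 22.6% lower and 12.5% higher, and medians of -1.49 for the erasers and -0.16 for all genes. Here Tet1, Tet2, Tet3, Kdm3a, Kdm4a and Kdm7a passed only through neural stem cells. Every eraser had a log2 ratio below 0 in both comparisons. With TMM scaling 1 of them, Kdm1a, was above 0 in MIM-treated astrocytes. The 2 comparisons share the neural stem cell library, so their likeness is no separate evidence.

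Kdm6b encodes JMJD3, a JmjC demethylase that removes methyl groups from lysine 27 of histone H3, opposite to Polycomb repressive complex 2. It lay on chromosome 11 and was the member with the largest difference. Its level was 329.6 CPM in neural stem cells, 20.4 CPM in astrocytes and 31.8 CPM in MIM-treated astrocytes, which is 16.1-fold lower (15.1 to 17.3) in astrocytes and 10.4-fold lower (9.81 to 11.0) after MIM. The antisense gene Kdm6bos overlaps its exons on the other strand.

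The TET enzymes oxidise methylated cytosine, the first step of DNA demethylation, and all 3 were highest in the stem cell library. Tet1 stood at 22.0 CPM in neural stem cells, 2.47 CPM in astrocytes and 4.05 CPM in MIM-treated astrocytes, which is 8.90-fold lower (7.22 to 11.0) in astrocytes and 5.43-fold lower (4.55 to 6.50) in MIM-treated astrocytes. Tet2 was at 36.8, 7.73 and 7.56 CPM in the same order, 4.77-fold and 4.87-fold lower than in neural stem cells. Tet3 was at 32.1, 7.02 and 5.48 CPM, 4.57-fold lower (3.97 to 5.26) and 5.85-fold lower (5.03 to 6.81) than in neural stem cells. Between the astrocyte libraries Tet2 differed by 1.02-fold (0.885 to 1.18), less than counting error, and Tet1 was 1.64-fold higher after MIM (1.31 to 2.06).

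The RefSeq promoter window of Tet2 is shown because it carries the base pair step that TET and DNA methyltransferase enzymes act on. It covers chr3:133544391-133544640 (GRCm38.p6, minus strand, the 250 bases before the gene start, 5′ to 3′), and capitals mark its 51 CG dinucleotides.
Tet2: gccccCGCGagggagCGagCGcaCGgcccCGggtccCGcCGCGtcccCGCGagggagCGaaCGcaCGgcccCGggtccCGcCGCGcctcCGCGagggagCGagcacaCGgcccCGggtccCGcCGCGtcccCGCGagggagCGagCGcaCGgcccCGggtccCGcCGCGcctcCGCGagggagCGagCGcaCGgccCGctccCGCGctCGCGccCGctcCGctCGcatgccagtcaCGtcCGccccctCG
The median CG count was 23 over the 41 windows of the 30 members with an entry and 6 over all 32851 windows.

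The other JmjC demethylases were lower by smaller factors. Kdm4a, which acts on methylated lysines 9 and 36 of histone H3, was at 21.7 CPM in neural stem cells, 5.02 CPM in astrocytes and 5.17 CPM in MIM-treated astrocytes, 4.33-fold lower (3.66 to 5.12) and 4.20-fold lower (3.56 to 4.97). Kdm2b, a lysine 36 demethylase that also brings a variant Polycomb complex to CpG islands, was at 26.5, 7.25 and 10.4 CPM, and Kdm5b, a lysine 4 demethylase, at 96.8, 36.2 and 41.7 CPM. These too were called lower in both comparisons. Kdm3a (17.8, 5.63 and 6.05 CPM), a lysine 9 demethylase, was likewise lower in both, while its relative Kdm3b (28.0, 11.3 and 14.5 CPM) and the lysine 36 demethylase Kdm2a (32.1, 15.2 and 16.1 CPM) were called in astrocytes only. Kdm5a, a further lysine 4 demethylase, was at 42.1, 21.0 and 17.0 CPM and was called in MIM-treated astrocytes only. Differences between the 2 comparisons were not tested.

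Kdm7a, which removes methyl groups from lysines 9 and 27, had another pattern. It stood at 25.4 CPM in neural stem cells, 14.0 CPM in astrocytes and 5.38 CPM in MIM-treated astrocytes, and was 4.72-fold below neural stem cells after MIM (4.03 to 5.53). Kdm1a, the FAD-dependent demethylase LSD1, was the eraser nearest to the stem cell level after MIM. Its levels of 216, 116 and 166 CPM gave 1.87-fold lower (1.79 to 1.96) in astrocytes and 1.30-fold lower (1.25 to 1.36) in MIM-treated astrocytes, both short of the call. Kdm4b (9.87, 2.27 and 2.69 CPM) was the eraser under the level filter.

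Among the writers, 22 of 26 passed the level filter in astrocytes against neural stem cells, with 14 lower and 0 higher, and 23 passed in MIM-treated astrocytes, with 12 lower and 0 higher. Of those called lower, Dnmt1, Setd1b, Setdb1, Dot1l and Carm1 in astrocytes passed only through neural stem cells. In MIM-treated astrocytes this held for Ezh1, Kmt2b, Setd1b, Setd7, Dot1l and Carm1. Writers and erasers together gave 24 calls in astrocytes, where 49.3% of genes were called in either direction, and 22 in MIM-treated astrocytes, where 35.1% were. Their median log2 ratios, over all 26, were -1.34 in astrocytes and -0.995 in MIM-treated astrocytes. With TMM scaling 1 writer was called higher in each comparison, Setd7 in astrocytes and Prmt1 in MIM-treated astrocytes. Each scaling multiplies a whole library by 1 factor and so moves members and other genes together. Leaving Malat1 out of the totals shifted the median of all genes by -0.23 in astrocytes and -0.30 in MIM-treated astrocytes, and TMM shifted it by 0.16 and 0.38. Relative to the median of all genes, which such a factor leaves nearly as it was, the writers stood at -1.37 in astrocytes and -0.84 in MIM-treated astrocytes, and the erasers at -1.65 and -1.33. Without Malat1 in the totals 17 writers and 14 erasers were called lower in astrocytes, beside 2714 of the 8642 genes that passed. In MIM-treated astrocytes 16 and 13 were, beside 2737 of 8078 genes. With TMM 13 writers and 9 erasers were called lower in astrocytes, beside 1626 of 7639 genes. In MIM-treated astrocytes 7 and 7 were, beside 888 of 7196 genes. Of all genes called in astrocytes against neural stem cells, 49.0% were higher with library totals, 37.5% without Malat1, 57.8% with TMM and 42.4% without mitochondrial and ribosomal protein genes, and in MIM-treated astrocytes 35.5%, 16.4%, 66.5% and 31.5%.

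**Figure D2:**
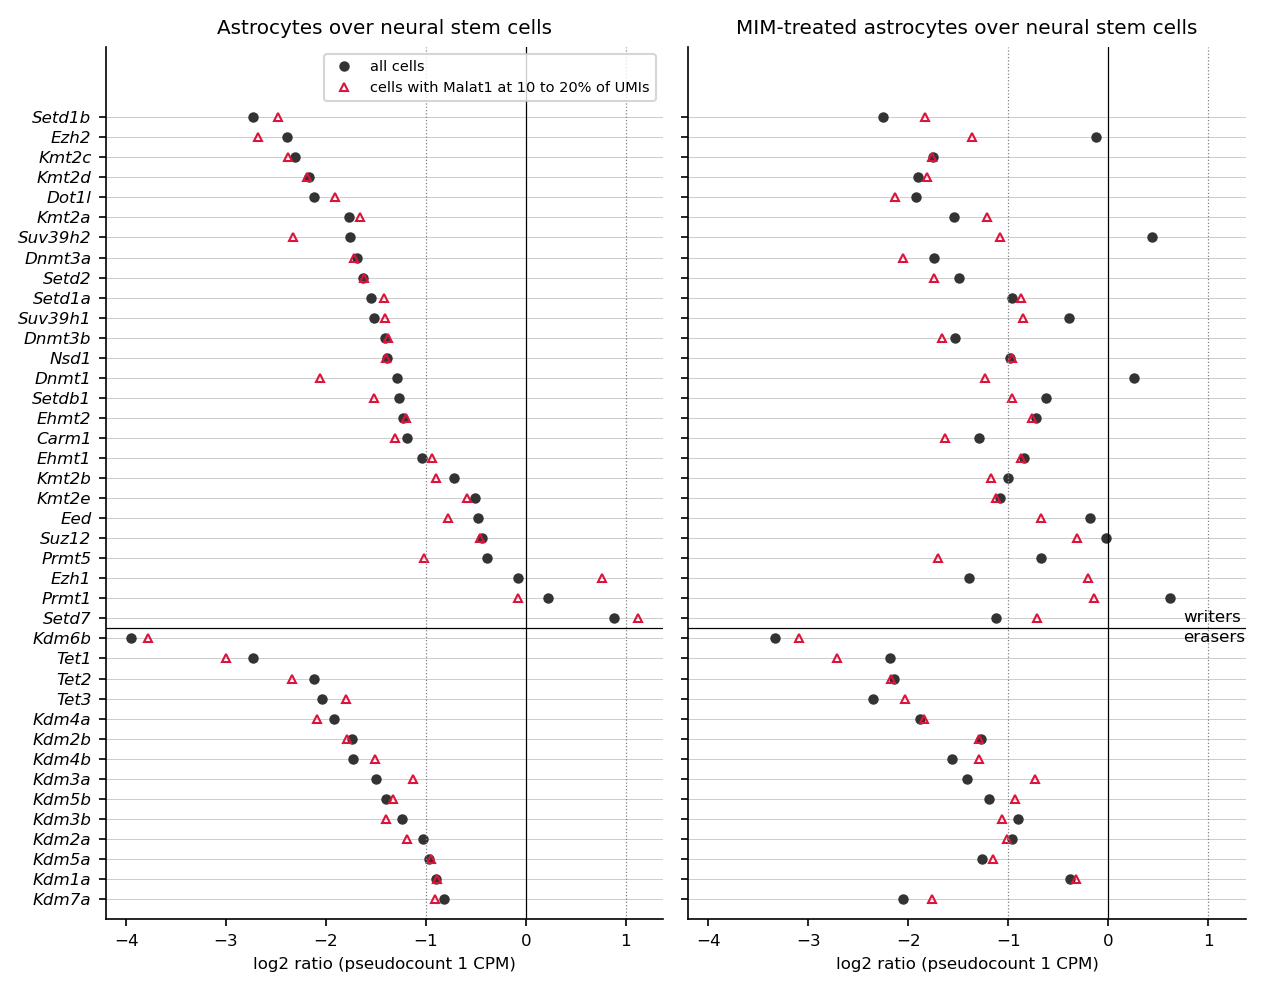
Log2 ratio to neural stem cells (pseudocount 1 CPM) for each of the 26 writers, above the line, and the 14 erasers, below it, in astrocytes (left) and MIM-treated astrocytes (right). Filled circles use all cells and open triangles only cells whose Malat1 share was 10 to 20%, and dotted lines mark the fold rule. All 14 erasers lie left of 0 in both panels by both measures, and the triangles of Ezh2, Dnmt1 and Suv39h2 in the right panel lie well left of their circles (with TMM scaling, not drawn, Kdm1a is above 0 in MIM-treated astrocytes).

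The DNA methyltransferases parted from each other. Dnmt1 copies methylation onto newly made DNA, and its level was 20.6 CPM (18.3 to 23.0) in neural stem cells, 7.83 CPM (7.07 to 8.64) in untreated astrocytes and, after MIM, 24.8 CPM (23.5 to 26.2). It was 2.63-fold lower (2.25 to 3.06) in astrocytes than in neural stem cells and 1.21-fold higher (1.06 to 1.37) in MIM-treated astrocytes. That last direction turned with Malat1 left out of the totals, where Dnmt1 was at 28.1 CPM in neural stem cells and 27.4 CPM after MIM, a ratio of 0.974 (0.859 to 1.11). Dnmt3a, which sets new methylation, was at 55.5, 16.5 and 15.9 CPM, 3.35-fold (3.04 to 3.70) and 3.48-fold lower (3.16 to 3.84). Over all cells, untreated and treated astrocytes lay apart for Dnmt1 and together for Dnmt3a, for which their ratio was 1.04 (interval 0.942 to 1.15). In cells not counted as dividing (a class defined with the dividing cells further on) it was the other way round with library totals: Dnmt1 was at 7.59 and 8.14 CPM, and Dnmt3a at 16.5 and 11.9 CPM, a ratio of treated to untreated of 0.719 (0.623 to 0.828). The median log2 ratio of all genes in those cells was -0.30, so Dnmt1 lay above that median and Dnmt3a below it. Dnmt3b, the other enzyme for new methylation, was under the level filter at 2.86, 0.455 and 0.334 CPM.

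Polycomb repressive complex 2 joins a catalytic subunit, Ezh2 or its relative Ezh1, to Eed and Suz12. Ezh2 was at 87.3 CPM in neural stem cells, 15.8 CPM in astrocytes and 80.1 CPM in MIM-treated astrocytes, so that over all cells the untreated astrocytes were low, 5.51-fold below neural stem cells (5.04 to 6.03). At a matched Malat1 share and in non-dividing cells MIM-treated astrocytes were lower too, with log2 ratios of -1.36 and -1.42. Ezh1 was at 10.6, 9.92 and 3.40 CPM, and here MIM-treated astrocytes were low, with a log2 ratio to neural stem cells of -1.39 (a 2.48-fold to 3.88-fold lower level by the counting interval). Eed (19.3, 13.6 and 16.9 CPM) and Suz12 (28.0, 20.5 and 27.6 CPM) differed by at most 1.42-fold from neural stem cells with library totals and were not called.

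The lysine 4 writers of the KMT2 and SETD1 families held several of the largest differences among the writers. Setd1b was at 39.9 CPM in neural stem cells, 5.18 CPM in astrocytes and 7.58 CPM in MIM-treated astrocytes, 7.70-fold (6.65 to 8.95) and 5.26-fold lower (4.62 to 6.00). Kmt2c and Kmt2d mark enhancers. Kmt2c was at 71.8, 13.7 and 20.7 CPM, 5.25-fold (4.76 to 5.78) and 3.47-fold lower (3.18 to 3.79). Kmt2d was at 89.1, 19.0 and 23.1 CPM, 4.68-fold (4.30 to 5.09) and 3.86-fold lower (3.57 to 4.18). Kmt2a, the mouse MLL1 gene, was at 61.1, 17.2 and 20.4 CPM, 3.56-fold and 3.00-fold lower. All 4 were called lower in both comparisons. Kmt2b (14.8, 8.60 and 6.89 CPM) and Kmt2e (145, 101 and 68.2 CPM), the latter a family member without known lysine 4 activity of its own, were called lower in MIM-treated astrocytes only, and Setd1a (7.90, 2.04 and 3.56 CPM) was under the level filter.

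Setd7, which places a single methyl group on lysine 4 and also methylates other proteins, was the writer with the highest ratio in astrocytes. Its level was 12.9 CPM in neural stem cells, 24.8 CPM in astrocytes and 5.42 CPM in MIM-treated astrocytes. It was 1.92-fold higher (1.64 to 2.24) in astrocytes than in neural stem cells, just short of the call, and 2.39-fold lower (1.97 to 2.88) in MIM-treated astrocytes.

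For lysine 9, Setdb1, Ehmt1 and Ehmt2 (the G9a pair) were called lower in astrocytes and not in MIM-treated astrocytes. Setdb1 was at 22.5, 8.80 and 14.3 CPM, Ehmt1 at 93.7, 45.1 and 51.8 CPM, and Ehmt2 at 34.9, 14.3 and 20.7 CPM in the 3 libraries. Suv39h1 and Suv39h2, which mark the compact chromatin around centromeres, were low in astrocytes and near or above the stem cell level after MIM. Suv39h1 was at 8.17, 2.19 and 5.97 CPM and Suv39h2 at 8.03, 1.66 and 11.2 CPM. Suv39h1 is on the X chromosome, and Xist, the RNA of the silenced X, was at 224, 24.5 and 35.2 CPM in the 3 libraries. The part of a mix of male and female cells was not tested.

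The lysine 36 writers Setd2 (33.2, 10.1 and 11.2 CPM) and Nsd1 (98.9, 37.2 and 49.4 CPM) were called lower in astrocytes, and Setd2 also in MIM-treated astrocytes. Dot1l, the lysine 79 methyltransferase, was at 21.9, 4.27 and 5.01 CPM, 5.12-fold (4.29 to 6.11) and 4.36-fold lower (3.69 to 5.16). The arginine writers went their own ways. Prmt1, the main enzyme for asymmetric arginine methylation, was lowest in neural stem cells at 137 CPM, against 159.6 and 211 CPM, 1.17-fold (1.11 to 1.22) and 1.54-fold higher (1.47 to 1.62). With Malat1 left out of the totals its log2 ratio in astrocytes was -0.02. Prmt5, for symmetric arginine methylation, was at 13.3, 9.96 and 7.98 CPM, and Carm1, a coactivator that methylates arginines of histone H3, was called lower in both at 11.7, 4.59 and 4.18 CPM.

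Because the neural stem cell library held the most Malat1, the classes were also compared between cells with a like Malat1 share. With Malat1 left out of the totals, writers in neural stem cells went from 1331 CPM in cells below 10% Malat1 to 1781 CPM in cells at 30% or more, and erasers from 1007 to 1555 CPM. In astrocytes writers were at 670.4 CPM in the lowest bin, 654 CPM at 10 to 20%, 752 CPM at 20 to 30% and 1087 CPM in the highest, and erasers at 302, 311, 373 and 599.7 CPM. In MIM-treated astrocytes writers were at 853, 663, 1120.3 and 1015 CPM in the same bins, and erasers at 334, 402, 686 and 611 CPM. Both classes were thus higher in neural stem cells than in the other libraries within each of the 4 bins, and erasers were higher in the top bins than in the lowest in every library. The top bin held only 190 astrocytes and 172 MIM-treated astrocytes, with medians of 1838.5 and 1357.5 UMIs against 1401 in neural stem cells, and mitochondrial genes at 6.04%, 5.40% and 2.15% of the remaining UMIs.

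**Figure D3:**
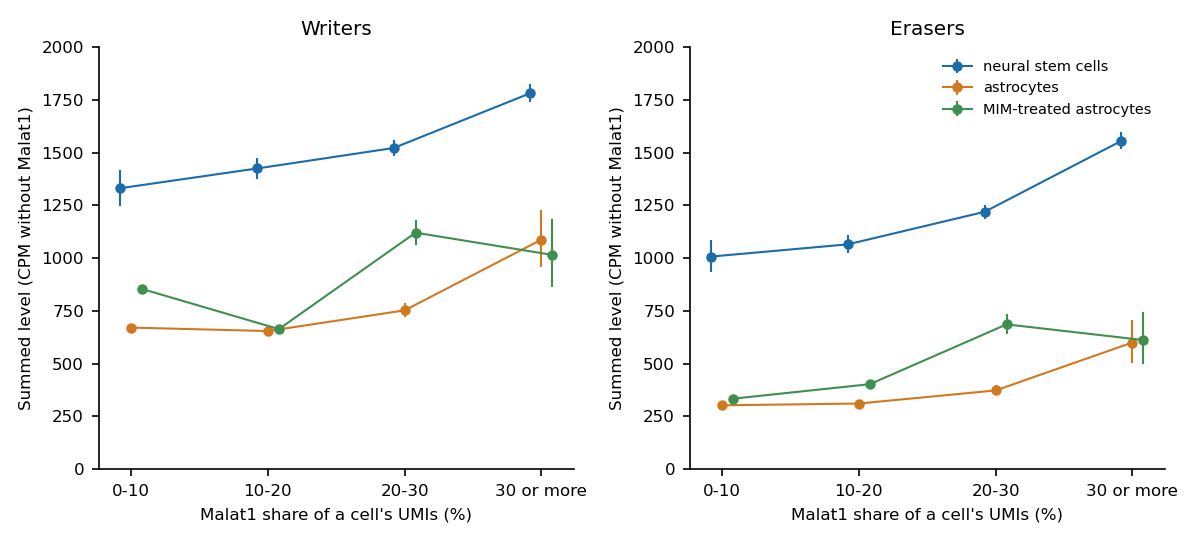
Summed level of writers (left) and erasers (right), in CPM with Malat1 left out of the totals, in cells binned by the Malat1 share of their UMIs, for the 3 libraries. Bars are exact 95% counting intervals. The neural stem cell points are highest in every bin, from 1331 to 1781 CPM for writers and from 1007 to 1555 CPM for erasers.

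In cells at 10 to 20% Malat1 alone (1752 neural stem cells, 6793 untreated and 5285 MIM-treated astrocytes), 23 of the 24 members called in astrocytes and 18 of the 22 called in MIM-treated astrocytes were still called against neural stem cells. A further 3 and 6 members were newly called. That made 26 of 35 members in astrocytes, 1 writer among them as higher, where 48.2% of genes were called. In MIM-treated astrocytes 24 of 35 were called, all as lower, where 34.7% of genes were called. Median log2 ratios there were -1.41 for the writers and -1.45 for the erasers in astrocytes, and -1.15 and -1.30 in MIM-treated astrocytes. The class medians thus lay closer together than in all cells, where they were -1.34 and -1.62, and -0.995 and -1.49. Kdm6b was at 299 CPM in those neural stem cells, 20.9 CPM in astrocytes and 34.2 CPM in MIM-treated astrocytes, log2 ratios of -3.78 and -3.09. Tet1 stood at -3.00 and -2.72. The members near the stem cell level after MIM moved most: Ezh2 went from -0.12 in all cells to -1.36 here, Dnmt1 from 0.26 to -1.23, Suv39h2 from 0.44 to -1.08 and Prmt1 from 0.62 to -0.14. Ezh1 went from -0.08 to 0.76 in astrocytes.

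Both class sums were somewhat higher in treated than in untreated astrocytes. The writer sum was 1.25-fold higher after MIM (1.23 to 1.27) and the eraser sum 1.23-fold higher (1.205 to 1.26). With TMM scaling these were 1.48-fold and 1.45-fold, and the writer sum after MIM was then 1.21-fold below neural stem cells, nearer to them than to untreated astrocytes. Most of each rise with library totals lay in few genes. Among the writers Ezh2 went from 15.8 to 80.1 CPM and Prmt1 from 159.6 to 211 CPM. Among the erasers Kdm1a went from 116 to 166 CPM and Kdm6b from 20.4 to 31.8 CPM. The log2 ratios of 8 of 26 writers and 4 of 14 erasers were below 0. Of 26 writers 17 passed the level filter, with 3 higher and 1 lower, and of 14 erasers 8 passed, with 0 higher and 1 lower. The background was 11.2% higher and 19.1% lower among 6980 genes. Median log2 ratios were 0.28 for all 26 writers, 0.13 for all 14 erasers and -0.20 for all genes, and with TMM scaling 0.51, 0.33 and 0.03. In all, 5 of 40 members were called, where 30.3% of the genes that passed the filter were. Of all genes called, 36.9% were higher with library totals, 32.6% without Malat1, 52.9% with TMM and 42.6% without mitochondrial and ribosomal protein genes. The 5 calls were made under each of the other 3 scalings as well. Of the 5, only Ezh2 reached 10 CPM in both astrocyte libraries with library totals.

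The 3 writers called higher were Ezh2, Suv39h2 and Dnmt1. Ezh2 was 5.06-fold higher after MIM (4.69 to 5.46), from 15.8 to 80.1 CPM. Suv39h2 was 6.76-fold higher (5.36 to 8.60), from 1.66 to 11.2 CPM, and Dnmt1 3.17-fold higher (2.83 to 3.56), from 7.83 to 24.8 CPM. Suv39h1 was 2.72-fold higher (2.18 to 3.41) but under the level filter. Setd7 was the writer called lower, 4.57-fold (4.01 to 5.23), from 24.8 to 5.42 CPM, and Kdm7a the eraser, 2.60-fold (2.26 to 3.00), from 14.0 to 5.38 CPM. Ezh1 was 2.92-fold lower (2.45 to 3.49), and at 9.92 CPM in astrocytes it stayed just under the level filter. Kdm6b was 1.55-fold higher (1.44 to 1.68) and was not called.

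The libraries also differed in dividing cells. Cells with at least 1000 UMIs were thinned to 1000 and counted as dividing from 5 UMIs of a list of cell division genes that holds no member, and as non-dividing at 0 or 1. Dividing cells made up 7.78% of neural stem cells (598 cells), 0.306% of astrocytes (29) and 28.9% of MIM-treated astrocytes (4039). Another 1615, 1854 and 2847 cells lay between the classes, 193, 109 and 642 were at 4 or 5 list UMIs, and 1457, 351 and 973 cells were too shallow.

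Within the non-dividing cells (5475 neural stem cells, 7584 untreated and 7105 MIM-treated astrocytes), 1 of the 5 MIM calls was still made, that of Setd7. It was at 25.3 CPM in non-dividing astrocytes and 5.99 CPM in non-dividing MIM-treated astrocytes, a log2 ratio of -1.91 against -2.01 in all cells. Ezh2 was at 15.9 and 24.4 CPM, 1.54-fold higher (1.37 to 1.72). Dnmt1 was at 7.59 and 8.14 CPM, a ratio of 1.07 (0.892 to 1.29), and Suv39h2 at 1.75 and 3.63 CPM, 2.07-fold higher (1.50 to 2.88). Kdm7a was at 13.2 and 6.96 CPM, a log2 ratio of -0.84, and Kdm6b at 19.4 and 37.4 CPM, 1.93-fold higher (1.75 to 2.13). The median log2 ratio of the writers was 0.064 in non-dividing cells against 0.28 in all cells. For the erasers it was 0.22 against 0.13, and for all genes -0.30 against -0.20. Against neural stem cells, 23 of 24 calls in astrocytes and 21 of 22 in MIM-treated astrocytes were still made in non-dividing cells, and 2 and 5 members were newly called. That made 25 of 36 members in astrocytes, where 49.8% of genes were called, and 26 of 36 in MIM-treated astrocytes, where 35.9% were. Ezh2, at 66.8 CPM in non-dividing neural stem cells, was then lower in MIM-treated astrocytes as well (log2 ratio -1.42).

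**Figure D4:**
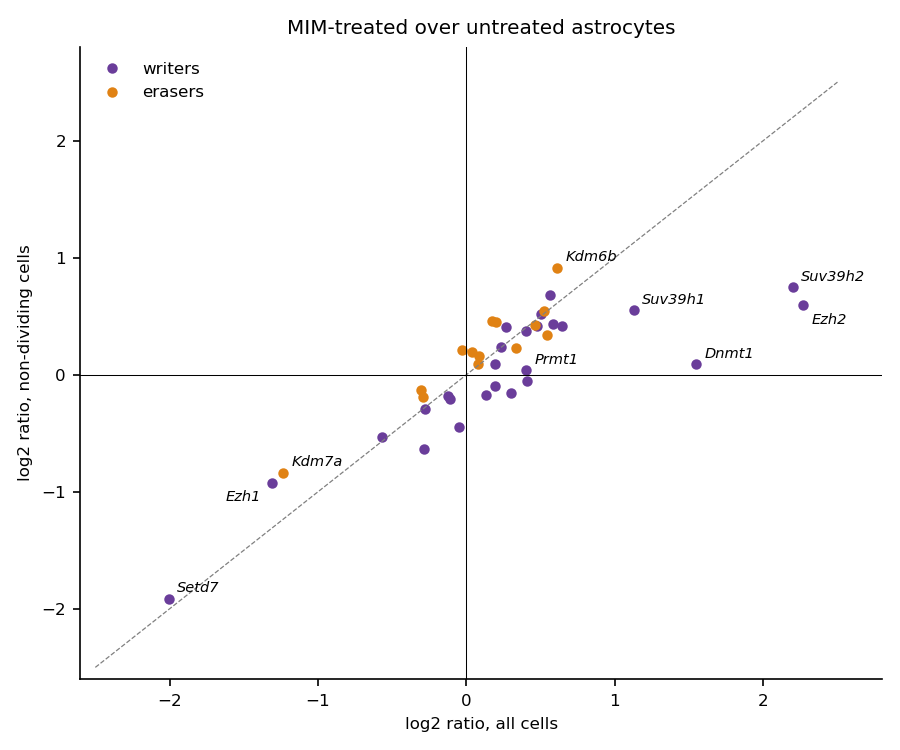
Log2 ratio of MIM-treated over untreated astrocytes for 26 writers and 14 erasers in all cells (horizontal axis) and in non-dividing cells only (vertical axis), with equality as a dashed line. Ezh2 (2.27 against 0.59), Suv39h2 (2.20 against 0.75) and Dnmt1 (1.55 against 0.09) lie far below the line, while Setd7 (-2.01 against -1.91) lies on it.

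Dividing and non-dividing cells were then compared within a library. In neural stem cells 4 writers were higher in dividing cells, Dnmt1, Ezh2, Suv39h2 and Suv39h1, and 0 erasers, where 7.32% of 7490 genes were higher. In MIM-treated astrocytes 4 writers were higher, Dnmt1, Ezh2, Suv39h2 and Suz12, and 0 erasers, where 10.1% of 6293 genes were higher. No member was called lower in either, against 2.00% and 1.40% of genes. Median log2 ratios were -0.04 and 0.26 for the writers, -0.30 and -0.38 for the erasers, and 0.06 and 0.11 for all genes. Cells of 1 library are not replicates, so these are values of 2 cultures. Dividing cells were deeper (medians of 2185 against 1453 UMIs in neural stem cells and 4186 against 3142 in MIM-treated astrocytes) and held less Malat1 (19.0% against 28.8%, and 6.51% against 11.7%). The 29 dividing astrocytes were too few to describe.

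Dnmt1 was at 69.5 CPM in dividing and 14.6 CPM in non-dividing neural stem cells, 4.78-fold higher (3.66 to 6.22), and at 53.3 and 8.14 CPM in MIM-treated astrocytes, 6.55-fold higher (5.60 to 7.69). Ezh2 was at 221 and 66.8 CPM in neural stem cells, 3.31-fold higher (2.89 to 3.79), and at 180.1 and 24.4 CPM in MIM-treated astrocytes, 7.37-fold higher (6.75 to 8.07). Suv39h2 was 5.42-fold higher (3.53 to 8.29) and 6.78-fold higher (5.37 to 8.65). The other subunits of the Ezh2 complex went the same way by less. Suz12 was at 46.8 and 26.4 CPM, 1.77-fold higher (1.34 to 2.32), in neural stem cells and at 42.8 and 18.7 CPM, 2.29-fold higher (2.03 to 2.58), in MIM-treated astrocytes, and Eed 1.38-fold (0.931 to 1.99) and 2.07-fold higher (1.77 to 2.41). Suv39h1 was 2.58-fold (1.57 to 4.14) and 2.62-fold higher (2.02 to 3.42), and in MIM-treated astrocytes it was under the level filter.

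Members with lower levels in dividing cells lay short of the call with library totals. Ezh1 was at 6.02 CPM in dividing and 11.6 CPM in non-dividing neural stem cells, a log2 ratio of -0.85, and at 1.59 and 4.64 CPM in MIM-treated astrocytes, -1.12 under the level filter. The 2 catalytic subunits thus stood on opposite sides of 0 in both libraries, although the interval of the Ezh1 ratio in neural stem cells reached from 0.230 to 1.02. Kdm6b was at 176 and 344 CPM in neural stem cells and at 18.5 and 37.4 CPM in MIM-treated astrocytes, log2 ratios of -0.96 and -0.98. With Malat1 left out of the totals these became -1.15 and -1.06 and were called lower, as were Ezh1 (-1.04) and Kdm5b (-1.02) in neural stem cells. With the dividing class drawn from cells thinned to 500 UMIs, Kdm7a was called lower in neural stem cells at -1.21.

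**Figure D5:**
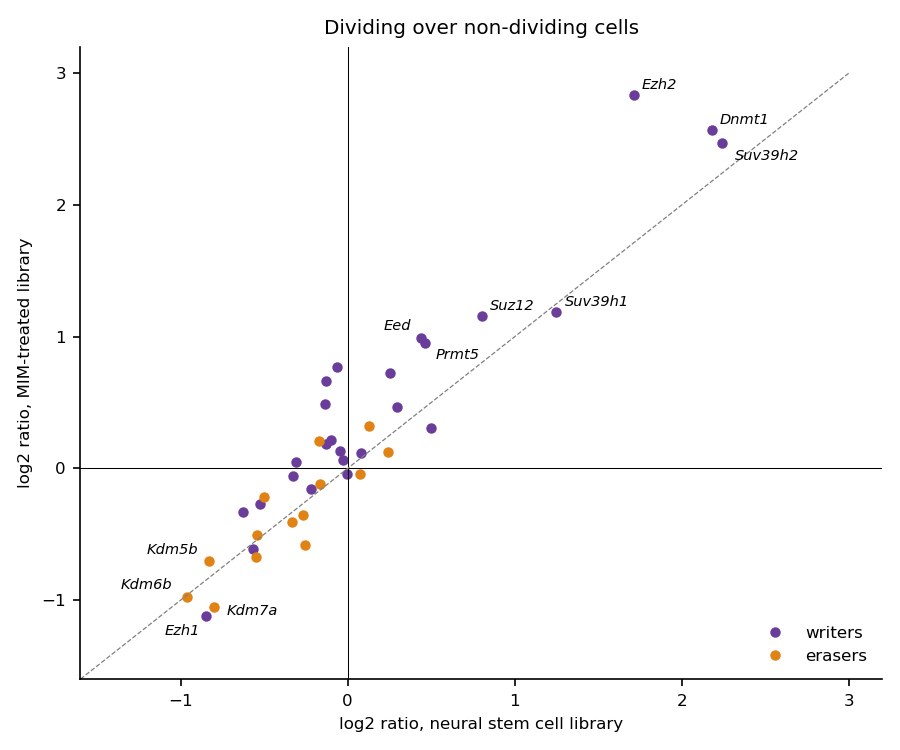
Log2 ratio of dividing over non-dividing cells for 26 writers and 14 erasers in the neural stem cell library (horizontal axis) and the MIM-treated library (vertical axis), with equality as a dashed line. Dnmt1 (2.18 and 2.57), Ezh2 (1.71 and 2.83) and Suv39h2 (2.24 and 2.47) stand apart at the upper right, and Ezh1, Kdm6b and Kdm7a lie at the lower left.

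Dividing cells were also split by whether they held more UMIs of S phase or of G2 and M phase genes. Dnmt1 was at 93.2 CPM in 665 cells leaning to S and 45.0 CPM in 3334 leaning to G2 and M in MIM-treated astrocytes, 2.07-fold higher in S (1.80 to 2.39), and 2.13-fold higher (1.30 to 3.38) in neural stem cells (81 and 505 cells). Ezh2 did not part in this way, with 177 and 181 CPM in MIM-treated astrocytes, a ratio of 0.973 (0.884 to 1.07). Eed was 1.50-fold higher in S (1.19 to 1.88) in MIM-treated astrocytes, and Kdm6b stood at 8.99 CPM in S against 20.5 CPM, a ratio of 0.438 (0.284 to 0.651). In neural stem cells the Kdm6b ratio was 0.735 (0.470 to 1.10).

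E2F factors bind the promoters of many S phase genes, and the CHR element is found in promoters of many G2 and M phase genes, so RefSeq promoter windows (the 250 bases before each gene start, GRCm38.p6) were searched on both strands for TTTCCCGC or TTTGGCGC (E2F type) and for TTTGAA (CHR type). Of the 30 members with an entry, 21 writers and 9 erasers, 1 held the E2F letters, Suz12, against 1.51% of 27025 genes, and 4 held the CHR letters, the writers Dnmt1, Dnmt3b, Eed and Suz12, against 18.3% of genes. Suz12 and Ezh1 are shown as the Polycomb subunits on opposite sides of 0 in dividing cells whose windows hold no annotated exon. Suz12 lies at chr11:79992856-79993105 (plus strand) and Ezh1 at chr11:101226464-101226713 (minus strand), both 5′ to 3′, and capitals mark the E2F match, which starts 219 bases before the gene start.
Suz12: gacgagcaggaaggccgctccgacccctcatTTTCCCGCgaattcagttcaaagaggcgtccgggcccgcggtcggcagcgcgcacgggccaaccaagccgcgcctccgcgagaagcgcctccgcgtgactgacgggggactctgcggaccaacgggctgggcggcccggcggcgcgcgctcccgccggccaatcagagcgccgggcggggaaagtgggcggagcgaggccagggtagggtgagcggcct
Ezh1: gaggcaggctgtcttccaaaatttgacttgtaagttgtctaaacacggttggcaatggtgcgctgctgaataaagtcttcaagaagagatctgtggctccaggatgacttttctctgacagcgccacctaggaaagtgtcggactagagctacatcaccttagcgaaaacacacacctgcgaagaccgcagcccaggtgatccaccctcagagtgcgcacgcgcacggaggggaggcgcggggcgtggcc
The Suz12 window also holds 1 CHR match, left in lower case, and the Ezh1 window holds neither set of letters.

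The enzymes' partners and relatives were described by lists. Their counts are read against the shares of all genes, 25.1% lower and 24.2% higher in astrocytes and 22.6% lower and 12.5% higher in MIM-treated astrocytes. Between treated and untreated astrocytes these shares were 19.1% lower and 11.2% higher. Of 18 Polycomb partners 11 passed the level filter in astrocytes, with 3 called lower and 0 higher (median log2 ratio -0.35), which is near the share of lower genes. The largest difference was that of Jarid2, which helps bring the complex to its targets, at 81.8 CPM in neural stem cells, 6.44 CPM in astrocytes and 15.9 CPM in MIM-treated astrocytes. It was 12.7-fold lower (11.2 to 14.4) in astrocytes and 5.15-fold lower (4.71 to 5.64) in MIM-treated astrocytes, and 2.47-fold higher (2.17 to 2.81) after MIM. Of 11 COMPASS subunits, partners of the lysine 4 writers, 8 passed in each comparison with neural stem cells. In astrocytes 1 was lower and in MIM-treated astrocytes 3 were (medians -0.82 and -0.90), with 0 higher in either. Among them was Ncoa6 (13.1, 6.03 and 5.21 CPM).

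Of 11 partners of DNA methylation, 7 passed in astrocytes, with 4 lower and 1 higher (median -1.19), and 8 in MIM-treated astrocytes, with 3 lower and 1 higher (median -0.54). Tdg, the glycosylase that removes the bases TET enzymes make, was at 90.3, 12.7 and 39.0 CPM, and Trim28, a corepressor that recruits Setdb1, at 56.2, 12.2 and 23.1 CPM. Hells, a remodeller needed for DNA methylation, was at 0.771 CPM in astrocytes and 15.9 CPM in MIM-treated astrocytes, 20.6-fold higher (14.9 to 29.1). Mbd2, which reads methylated DNA, went the other way, at 111 and 43.1 CPM. The part of dividing cells (0.306% of untreated and 28.9% of treated astrocytes) in these 2 differences was not tested.

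Of 30 other methylation enzymes, 18 passed in astrocytes, with 9 lower and 1 higher (median -0.52), and 16 in MIM-treated astrocytes, with 8 lower and 0 higher (median -0.61). Kdm6a, the X-linked relative of Kdm6b, was at 18.2, 3.34 and 2.77 CPM, 5.46-fold (4.49 to 6.66) and 6.59-fold lower (5.35 to 8.14), and Jmjd1c, a JmjC family member, was at 85.5 and 17.4 CPM in neural stem cells and astrocytes. Between the astrocyte libraries Nsd2, a lysine 36 writer, was 2.56-fold higher after MIM (2.37 to 2.77) and Setd3, which methylates actin, 2.33-fold lower (2.18 to 2.49). The part of dividing cells in these was not tested either. Of the 5 S-adenosylmethionine enzymes 3 passed the level filter in MIM-treated against untreated astrocytes, with 1 called lower, where 19.1% of genes were. That was Mat2a, which makes S-adenosylmethionine, at 62.9 CPM in astrocytes and 27.5 CPM in MIM-treated astrocytes, 2.29-fold lower (2.15 to 2.44). Its regulatory subunit Mat2b was 2.08-fold higher (1.91 to 2.27) in astrocytes than in neural stem cells.

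The 26 chromatin remodellers, which slide or evict nucleosomes and methylate nothing, serve as the comparison list. Their median log2 ratios to neural stem cells were -1.47 in astrocytes and -0.99 in MIM-treated astrocytes, beside -1.34 and -0.995 for the writers and -1.62 and -1.49 for the erasers, and 14 and 13 of the 24 that passed in each comparison were lower and 0 higher. Chd7, a chromodomain helicase, was at 218 CPM in neural stem cells, 8.12 CPM in astrocytes and 35.4 CPM in MIM-treated astrocytes, and Smarcd1, a SWI/SNF subunit, at 336, 22.7 and 101 CPM. A median below that of all genes was thus found in a list without methylation enzymes too, and whether the lists differ was not tested.

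Exons of 16 members overlap those of another counted gene in GENCODE vM21, for 15 of them on the opposite strand (such as Gm26625 at Ezh2, Dclre1c at Suv39h2 and Srpk2 at Kmt2e) and for Setd1a on the same strand. Whether the counting used the strand is not given in the sources used here, so UMIs of these members are uncertain to that extent.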

How the data were processed

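Per the labels, 3 mouse cortical cultures were profiled with 10x Genomics 3′ libraries, 1 per group. The deposited matrices hold raw UMI counts, and the submitters' processing notes name Cell Ranger 3.0.2 and Seurat 3.1.1 without saying what Seurat was used for. The file headers do not give how counting treated strand or reads that match several genes.

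Cells with at least 200 genes and at most 20% mitochondrial UMIs were kept, which removed 12, 7 and 13 barcodes. No doublet caller was run and doublets were kept, and 1 alternative left out the 8% of cells with the most UMIs. UMIs were summed per library and scaled to the library total. Fold differences are ratios of CPM with exact conditional binomial intervals, levels have exact Poisson intervals, both at 95%, and log2 ratios add 1 CPM. Calls need a log2 ratio of at least 1 in size and 10 CPM in either library. No test was possible with 1 library per group. The members and lists were chosen with earlier results of these data known. The rule for named genes gave levels in every library for at most 6 writers and 5 erasers per comparison by size of log2 ratio, for Dnmt1, Dnmt3a, Tet3, Ezh1, Ezh2, Kdm6b and Setd7, and for up to 3 genes per companion list; the other members are given more briefly. The split by S and by G2 and M genes was added after seeing the data.

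Coordinates came from GENCODE vM21 (40 of 40 members matched by gene ID) and promoter sequences from RefSeq (30 of 40 matched by symbol). Calls and intervals were run on simulated Poisson counts. These hold counting error only, as the intervals assume, so their coverage says nothing of variation between cells or cultures. Of genes with a simulated 2-fold change, 24% were called in MIM-treated against untreated astrocytes. Against neural stem cells 32% were called in astrocytes and 44% in MIM-treated astrocytes. At 3-fold 100% were called in each. TMM factors came from edgeR 4.0.16 in R 4.3.3 (1.14, 1.02 and 0.862 in the order stem cells, untreated and treated astrocytes). The other scripts used numpy 2.4.6, pandas 2.3.3, scipy 1.17.1 and matplotlib 3.10.9 under Python 3.11.15. The random seed for thinning was 1.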

Additional observations from a re-analysis of the deposited data

How the results depend on the processing

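No alternative turned the direction of a class median or of a called member. With library totals 5 of 25 members that passed the filter were called in MIM-treated against untreated astrocytes. Against neural stem cells 24 of 35 were called in astrocytes and 22 of 36 in MIM-treated astrocytes. Of all genes that passed, 30.3%, 49.3% and 35.1% were called in these comparisons, in that order. In MIM-treated over untreated astrocytes the writers' median log2 ratio of 0.28 was 0.51 with TMM, 0.12 in cells with Malat1 at 10 to 20%, 0.14 in cells with 2000 to 4000 UMIs, 0.064 in non-dividing cells and 0.0081 in non-dividing cells with Malat1 at 10 to 20% (chosen after seeing the data), and the erasers' 0.33 with TMM. The count of 5 was 2 of 25 with a pseudocount of 10 CPM (18.4% of genes called) and 2 of 23 at matched Malat1 (28.7%). It was 1 of 22 in non-dividing cells (28.3%), 1 of 22 in those with matched Malat1 (28.8%) and 1 of 5 with at least 50 CPM required (32.3%). In astrocytes over neural stem cells the writers' median of -1.34 was -1.18 with TMM, -0.70 with a pseudocount of 10 CPM and -1.21 at 2000 to 4000 UMIs. It was -1.41 at matched Malat1, -1.23 in non-dividing cells and -1.25 in non-dividing cells at matched Malat1. The erasers' -1.62 was -1.46 with TMM, -0.96 with a pseudocount of 10 CPM, -1.45 at matched Malat1, -1.36 at 2000 to 4000 UMIs and -1.53 in non-dividing cells at matched Malat1. The count of 24 was 9 of 12 with at least 50 CPM required (54.2% of genes called) and 16 of 35 with a pseudocount of 10 CPM (31.9%). In MIM-treated astrocytes over neural stem cells the writers' -0.995 was -1.301 without Malat1 in the totals, -0.64 with TMM and -0.56 with a pseudocount of 10 CPM. It was -0.82 at 2000 to 4000 UMIs, -1.15 at matched Malat1 and -1.22 in non-dividing cells at matched Malat1. The erasers' -1.49 was -1.14 with TMM, -1.34 with each cell weighted equally, -0.998 with a pseudocount of 10 CPM, -1.296 at matched Malat1, -1.35 at 2000 to 4000 UMIs, -1.38 in non-dividing cells and -1.297 in non-dividing cells at matched Malat1. The count of 22 was 14 of 36 with a pseudocount of 10 CPM (17.6% of genes called) and 7 of 12 with at least 50 CPM required (36.5%). A higher level filter tests fewer genes and a larger pseudocount shrinks ratios of low genes, and for the other settings the cause was not tested. Of 1560 values of single members under alternatives, 568 moved beyond their counting interval. No paired analysis was possible because each group is 1 library. Dnmt3b, Setd1a, Suv39h1 and Kdm4b stayed under the level filter of 10 CPM in every library with library totals. Depth limits Dnmt3b, whose 23 and 17 UMIs in untreated and treated astrocytes leave a interval of 0.696 to 2.71 for the ratio of untreated to treated.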
